A study of Mus musculus with 8 samples.

Results

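The genes examined were 10 inhibitory receptors of T cells, *Pdcd1*, *Havcr2*, *Tigit*, *Lag3*, *Ctla4*, *Cd160*, *Btla*, *Cd101*, *Cd200r1* and *Lilrb4a*. They were chosen by symbol with earlier results of these data known, and all 10 were found among the 24303 genes of a polyA RNA-Seq table. The cells were P14 CD8 T cells from spleens of uninfected C57BL/6 mice of either sex, at least 8 weeks old, whose transgenic T cell receptor (TCR) recognises the GP33 peptide of LCMV, and all were cultured in vitro. Naive cells were activated on plates coated with anti-CD3 and anti-CD28 until day 2, then pooled and kept in medium with IL-2 and IL-15. Acute-2d cells received no GP33 after day 2 and were collected on day 19. Acute-7d cells received GP33 repeatedly until day 7, then peptide-free medium until day 19, and both Acute conditions are called rested below. T_Dysf cells received GP33 repeatedly until day 19 and TGF-β1 from day 7 onward. Effector cells were sorted on day 7 of the same culture model, a stage that the study elsewhere calls Effector 7d-stim, and the labels do not state their peptide. Each of the 4 conditions had 2 libraries. Continued peptide and TGF-β1 cannot be told apart in T_Dysf, nor can day 7 and condition in Effector.

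Inhibitory receptors are surface proteins that lower TCR and costimulatory signalling, many of them through cytoplasmic tyrosine motifs that recruit the phosphatases SHP-1, SHP-2 or SHIP-1, and others by taking ligand away from an activating receptor. T cells put several of them on the surface soon after activation and lose most of them when antigen is cleared. When antigen persists, as in chronic infection and tumors, CD8 T cells keep several at once, and antibodies that block PD-1, CTLA-4 or LAG-3 are used in cancer treatment.

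Values are normalized counts, that is, read counts that the authors divided by a size factor for each library, and 1 read was worth between 0.863 and 1.12 of them. Counted in reads, library depth on genes ran from 19382147 to 24856195. The lowest value of any of the 10 receptors was 68 reads, for *Btla* in T_Dysf, where counting error alone is 12.1%. Below 1000 reads, 51.0% of values in T_Dysf replicate 1 lay within 0.01 of a whole number of reads, against 72.2% to 74.9% in the other libraries. RESUB, a prefix that the labels leave unexplained, stands before the names of Acute-7d replicate 1 and the 2 Effector libraries. These 3 libraries had 53.5 to 115 normalized counts of *Xist*, the noncoding RNA of the inactive X chromosome, against 21871 to 30427 in the other 5, and they alone had over 250 counts of each of the Y-linked genes *Ddx3y*, *Kdm5d*, *Uty* and *Eif2s3y*. By these genes the 3 were male cells and the 5 female, so the Acute-7d replicates differ in sex. Only the comparison of T_Dysf with Acute-2d is free of the prefix and of this difference. Effector shares the prefix and the sex with Acute-7d replicate 1 alone. Against Acute-2d and T_Dysf, the prefix, the sex of the donor and the condition of Effector differ together.

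The sorted cells had the transcripts of CD8 T cells. The 5 genes *Cd3e*, *Cd3d*, *Cd8a*, *Cd8b1* and *Trac* summed to between 44591 and 57055 normalized counts in Effector and the Acute conditions and to 91137 and 88245 in T_Dysf. *Cd4* and *Ms4a1* stayed at or under 13.0 in every library, and *Fcer1a* was listed at 0 in all 8. Other markers of CD4 T, B and mast cells reached higher values. *Foxp3* had 49.5 in Acute-7d replicate 1, *Cd79a* 21.4 in T_Dysf replicate 2 and *Kit* 1696 in T_Dysf replicate 1. The 3 B cell markers summed to at most 38.1.

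*Pdcd1* (chr1:94038305-94052553, minus strand, GRCm38) encodes PD-1, which binds PD-L1 and PD-L2 and recruits SHP-2. It had 4017 and 3043 normalized counts in the Effector libraries (replicate 1 and replicate 2, in that order throughout), 352 and 462 in Acute-2d, 505 and 598 in Acute-7d, and 3754 and 4022 in T_Dysf. *Pdcd1* was thus high at day 7 and under continued stimulation and low in all 4 rested libraries, and the T_Dysf and Effector ranges overlapped. *Havcr2* (chr11:46454935-46481255, plus strand) encodes Tim-3, a receptor for galectin-9, CEACAM1 and other ligands. It had 2152 and 1173 in Effector, 311 and 263 in Acute-2d, 484 and 595 in Acute-7d, and 2763 and 3060.3 in T_Dysf. *Tigit* (chr16:43648867-43664146, minus strand), which binds CD155 and competes for it with the activating receptor CD226, had 1860.5 and 977 in Effector, 236 and 153 in Acute-2d, 425 and 351 in Acute-7d, and 3097 and 2665 in T_Dysf. For *Havcr2* and *Tigit* the 4 conditions did not overlap, in the order T_Dysf, Effector, Acute-7d, Acute-2d, but their Effector replicates lay far apart, with replicate 1 the higher. *Lag3* (chr6:124904361-124911705, minus strand) encodes LAG-3, which binds MHC class II and FGL1. It had 4331 and 2711 in Effector, 1807 and 2270.3 in Acute-2d, 1415 and 1563 in Acute-7d, and 4645 and 4823 in T_Dysf, so that its rested level was closer to its stimulated level than that of the other 3.

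**Figure D1:**
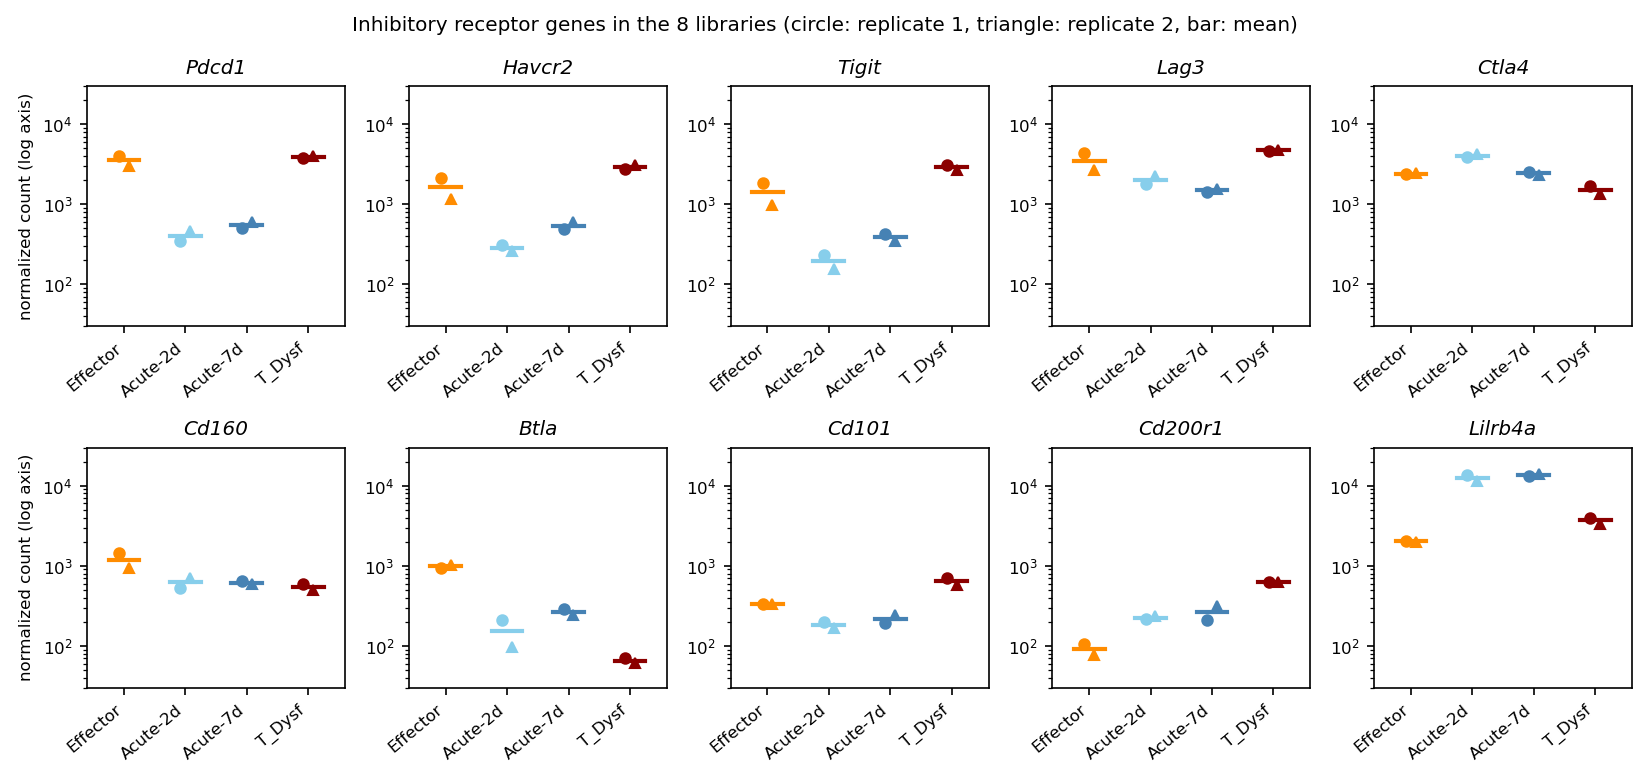
Normalized counts of the 10 inhibitory receptor genes in the 8 libraries on a log axis, by condition (circle, replicate 1; triangle, replicate 2; bar, mean of 2). *Pdcd1* lies between 352 and 598 in the 4 Acute libraries and between 3043 and 4022 in the other 4, while *Lilrb4a* lies between 11511 and 14136 in the Acute libraries and at or below 4004 elsewhere.

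Against Acute-2d, where no library carries the prefix, the log2 fold changes of T_Dysf were 3.91 for *Tigit* (standard error, SE, 0.38, adjusted p = 0.00725), 3.34 for *Havcr2* (SE 0.31, adjusted p = 0.00671), 3.27 for *Pdcd1* (SE 0.20, adjusted p = 0.00279) and 1.22 for *Lag3* (SE 0.25, adjusted p = 0.0427), from limma with p-values adjusted over all genes by Benjamini-Hochberg. Genes that differed 2-fold or more with an adjusted p under 0.05 were called, and all 4 were. *Pdcd1* and *Havcr2* were called in all 17 alternative fits. *Tigit* was not called without T_Dysf replicate 1 (adjusted p = 0.0534, with a range of 0.000314 to 0.0534 over its alternatives), and *Lag3*, called in 6 of 17 alternatives, was not without any 1 library of Acute-2d, Acute-7d or T_Dysf, after rescaling to equal 75th percentiles, in a fit of these 2 conditions alone, with a replicate block or with the RESUB libraries modelled or left out (adjusted p from 0.00672 to 0.169 over its alternatives). Fold changes are on the log2(normalized count + 1) scale. The p-values measure the spread between these libraries, which the labels call biological replicates without saying from which animals or cultures they came. An exact permutation test of 2 libraries against 2 cannot pass 0.05. Since RNA came from bulk samples, fewer cells with a transcript and less of it per cell cannot be told apart.

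The same 4 genes were called higher in Effector than in Acute-7d, with log2 fold changes of 2.67 for *Pdcd1* (SE 0.20, adjusted p = 0.00886), 1.80 for *Tigit* (SE 0.38, adjusted p = 0.0413), 1.56 for *Havcr2* (SE 0.31, adjusted p = 0.0373) and 1.20 for *Lag3* (SE 0.25, adjusted p = 0.0401; limma). Against Acute-2d the values were 3.11, 2.82, 2.47 and 0.76, and *Lag3* was not called (adjusted p = 0.111). Without any 1 library of Acute-2d, Acute-7d or T_Dysf, *Havcr2*, *Tigit* and *Lag3* were not called against Acute-7d, nor were *Tigit* and *Lag3* without Effector replicate 1, and over the 16 alternatives their adjusted p ran up to 0.164, 0.151 and 0.169. Against Acute-2d, *Havcr2* and *Tigit* were not called without either Acute-2d library, with adjusted p up to 0.136 and 0.193 over the alternatives. Between T_Dysf and Effector, *Havcr2* and *Tigit* had differences of 0.87 (95% confidence interval 0.07 to 1.68) and 1.09 (0.12 to 2.06) on the log2 scale, neither of them called over all genes. *Tigit* was called by limma when the fit kept only genes that reached 50 normalized counts on average, or in any library (adjusted p = 0.0347 and 0.0352). The study also filtered at a maximum of 50, but before normalization. Without Effector replicate 1 *Havcr2* was called, at 1.31. *Lag3* was called in Effector over Acute-2d without Effector replicate 2, at 1.10.

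Promoters of *Pdcd1*, *Havcr2* and *Tigit* are shown because these genes had like profiles, beside that of *Btla*, described further on, which had another. RefSeq promoters (250 bases before to 50 after the start site, GRCm38.p6) were matched by symbol for 7 of the 10 genes; *Lag3*, *Cd200r1* and *Lilrb4a* had no entry. They were searched on both strands for GGAAA, the core bound by NFAT, TGANTCA, bound by AP-1, AAGGTCA, bound by NR4A factors, CAGACA, bound by Smads, and TCAAAG, bound by TCF and LEF factors. Capitals mark the matches, and no match overlapped another motif.
Pdcd1 promoter (chr1:94052504-94052803, minus strand): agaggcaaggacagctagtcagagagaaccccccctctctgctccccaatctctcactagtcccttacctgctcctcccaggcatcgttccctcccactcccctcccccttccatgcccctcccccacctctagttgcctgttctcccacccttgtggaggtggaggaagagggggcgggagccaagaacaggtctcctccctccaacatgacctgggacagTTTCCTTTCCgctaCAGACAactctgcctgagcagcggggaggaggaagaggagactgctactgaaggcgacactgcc
Havcr2 promoter (chr11:46454681-46454980, plus strand): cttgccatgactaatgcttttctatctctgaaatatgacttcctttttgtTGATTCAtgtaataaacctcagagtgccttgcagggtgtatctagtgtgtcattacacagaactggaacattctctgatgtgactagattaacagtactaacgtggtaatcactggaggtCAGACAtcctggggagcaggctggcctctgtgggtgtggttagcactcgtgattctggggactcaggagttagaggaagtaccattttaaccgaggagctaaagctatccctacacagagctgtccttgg
Tigit promoter (chr16:43664135-43664434, minus strand): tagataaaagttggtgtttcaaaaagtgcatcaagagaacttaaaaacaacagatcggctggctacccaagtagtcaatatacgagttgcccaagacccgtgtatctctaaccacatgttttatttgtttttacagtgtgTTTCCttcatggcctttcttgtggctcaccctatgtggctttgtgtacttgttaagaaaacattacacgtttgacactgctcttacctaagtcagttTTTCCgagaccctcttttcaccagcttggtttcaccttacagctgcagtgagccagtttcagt
Btla promoter (chr16:45224087-45224386, plus strand): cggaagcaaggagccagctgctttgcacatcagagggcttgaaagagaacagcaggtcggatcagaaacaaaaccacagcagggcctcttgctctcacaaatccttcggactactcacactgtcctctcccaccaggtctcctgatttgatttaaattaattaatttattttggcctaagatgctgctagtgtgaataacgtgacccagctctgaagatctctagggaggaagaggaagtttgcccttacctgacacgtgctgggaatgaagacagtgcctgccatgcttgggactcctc
*Pdcd1* held GGAAA on the opposite strand in 2 adjacent copies, starting 28 and 23 bases before the start site, and CAGACA 14 bases before it. *Havcr2* held TGANTCA 200 bases and CAGACA 80 bases before the start site, and *Tigit* held GGAAA on the opposite strand 110 and 13 bases before it. No match of the 5 motifs was found in the *Btla* window. Of 32851 mouse promoters of the same length, 61.3% held GGAAA, 21.0% CAGACA, 16.0% TCAAAG, 7.81% TGANTCA and 4.72% AAGGTCA. Among the 7 receptor genes with an entry, 5, 2, 2, 1 and 0 held them, in the same order, with the 2 start sites of *Cd160* counted as 1 gene. A match is a description of the letters in this window only.

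*Cd101* and *Cd200r1* had their highest levels in T_Dysf. *Cd101* (chr3:100993529-101029556, minus strand) encodes an immunoglobulin superfamily protein known as a marker of terminally exhausted CD8 T cells. It had 334 and 336 normalized counts in Effector, 201 and 165 in Acute-2d, 193 and 240.3 in Acute-7d, and 707 and 577 in T_Dysf. *Cd200r1* (chr16:44765736-44794978, plus strand) encodes the receptor for CD200, which signals through the adaptors Dok1 and Dok2, and had 106 and 76.2 in Effector, 215 and 233 in Acute-2d, 212 and 315 in Acute-7d, and 634 and 618 in T_Dysf. The lowest *Cd200r1* level was that of Effector, below every rested library, which sets it apart from the other 5 genes called higher in T_Dysf than in the Acute conditions. T_Dysf exceeded Effector by 2.79 on the log2 scale for *Cd200r1* (SE 0.25, adjusted p = 0.00627), and Effector was below Acute-7d by a log2 fold change of -1.51 (SE 0.25, adjusted p = 0.0258; limma). For *Cd101* the log2 fold change of T_Dysf was 1.80 over Acute-2d (SE 0.17, adjusted p = 0.00700) and 0.93 over Effector (SE 0.17, adjusted p = 0.0293), the latter under the 2-fold threshold. *Cd200r1* had a log2 fold change of 1.48 over Acute-2d (SE 0.25, adjusted p = 0.0260) and 1.27 over Acute-7d (SE 0.25, adjusted p = 0.0453). The *Cd200r1* calls against both Acute conditions were lost without either library of T_Dysf or of the Acute condition compared, and against Acute-7d also without either Acute-2d library (adjusted p up to 0.183 over the alternatives). Its call in Effector against Acute-7d was lost without Effector replicate 2 or any 1 of the Acute and T_Dysf libraries (adjusted p from 0.00497 to 0.144 over the alternatives). *Cd200r1* shares 93.4% of 639 aligned transcript bases with *Cd200r4*, so that reads could be divided between them in counting, and its values are uncertain to that extent.

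*Ctla4*, *Cd160* and *Btla* were not high in T_Dysf. *Ctla4* (chr1:60887000-60915832, plus strand) encodes CTLA-4, which takes CD80 and CD86 away from CD28. It had 2408 and 2428 normalized counts in Effector, 3930.4 and 4192 in Acute-2d, 2554 and 2348 in Acute-7d, and 1685 and 1339.8 in T_Dysf, so that its highest level was in the cells that were stimulated for the shortest time and its lowest in those stimulated to the end. T_Dysf was lower than Acute-2d by a log2 fold change of -1.43 (SE 0.12, adjusted p = 0.00547) and was called, also in all 17 alternatives. The changes of -0.70 against Acute-7d (SE 0.12, adjusted p = 0.0345) and -0.69 against Effector (SE 0.12, adjusted p = 0.0263; limma) stayed under 2-fold. The annotated span of *Ctla4* holds the pseudogene *Rpl18-ps1* on the same strand, which had 112 to 309.8 normalized counts in 6 libraries and 4.42 and 131 in T_Dysf.

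*Btla* (chr16:45224315-45257670, plus strand) encodes a receptor for HVEM and had 928 and 1036 normalized counts in Effector, 209 and 97.2 in Acute-2d, 289 and 242 in Acute-7d, and 69.9 and 60.5 in T_Dysf. It was the reverse of *Cd200r1*, highest in Effector and lowest in T_Dysf. The log2 fold change of T_Dysf was -3.89 against Effector (SE 0.37, adjusted p = 0.00759) and -2.01 against Acute-7d (SE 0.37, adjusted p = 0.0414), while that of -1.12 against Acute-2d was not called over all genes (SE 0.37, adjusted p = 0.135; limma). It was called when only genes reaching 50 on average, or in any library, were fitted (adjusted p = 0.0479 and 0.0487) and, at -1.67, without Acute-2d replicate 2. Effector exceeded Acute-7d by 1.89 (SE 0.37, adjusted p = 0.0372) and Acute-2d by 2.78 (SE 0.37, adjusted p = 0.0170). The *Btla* calls against Acute-7d, in T_Dysf and in Effector, were lost without any 1 library of Effector, Acute-7d or T_Dysf (adjusted p up to 0.252 and 0.137 over the alternatives), and that in Effector against Acute-2d without Effector replicate 2 (0.00190 to 0.194). *Cd160* (chr3:96798763-96829351, minus strand), a GPI-anchored receptor that also binds HVEM, had 1437 and 945 in Effector, 533 and 710.3 in Acute-2d, 637 and 594 in Acute-7d, and 588 and 498 in T_Dysf. T_Dysf and both Acute conditions lay close together for *Cd160*, with a log2 fold change of -0.18 against Acute-7d (95% confidence interval -0.83 to 0.47), and only its decrease from Effector to T_Dysf was called, at -1.11 (SE 0.25, adjusted p = 0.0484). That call was kept in 4 of 16 alternatives and, of the libraries left out singly, only without Effector replicate 2 (adjusted p from 0.0101 to 0.375 over the alternatives). The *Cd160* locus overlaps *Pdzk1* on the other strand, which had 1.21 to 15.5 normalized counts.

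*Lilrb4a* (chr10:51490956-51496611, plus strand) encodes an immunoglobulin-like receptor with inhibitory tyrosine motifs, also named gp49B. It had 2049 and 1985 normalized counts in Effector, 13727 and 11511 in Acute-2d, 13078 and 14136 in Acute-7d, and 4004 and 3369 in T_Dysf. Its pattern was opposite to that of *Pdcd1*, with the 4 rested libraries far above the others. The log2 fold change was -1.89 for T_Dysf against Acute-7d (SE 0.13, adjusted p = 0.00444) and -1.77 against Acute-2d (SE 0.13, adjusted p = 0.00384), and for Effector it was -2.75 (SE 0.13, adjusted p = 0.00312) and -2.64 (SE 0.13, adjusted p = 0.00295; limma). T_Dysf stood 0.86 above Effector (SE 0.13, adjusted p = 0.0172), which is under 2-fold. The 4 calls were kept with any 1 library left out, and only that against Acute-7d was lost, among the 5 libraries without the prefix (adjusted p from 0.000274 to 0.0654 over its alternatives). Its neighbour *Lilrb4b*, listed in the deposited table as *Lilr4b* and taken to be the same gene, which encodes gp49A, a relative without those motifs, followed the same course, with 2603 and 1766 in Effector, 20626 and 18863 in Acute-2d, 23849.6 and 21342 in Acute-7d, and 5140.1 and 4251 in T_Dysf. The transcripts of this pair were 96.6% identical over 1379 aligned bases, so the division of reads between them is uncertain. *Gm49339*, which overlaps *Lilrb4a* on the same strand, had 457 to 649 normalized counts in Effector and T_Dysf and 1399 to 1805 in the Acute conditions, and *Gm40645*, on the other strand, had at most 6.70.

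Read by comparison, 6 of the 10 receptors were called higher and 2 lower in T_Dysf than in Acute-7d, where 2.54% and 3.03% of all genes were called in those directions. The 6 were *Pdcd1*, *Havcr2*, *Tigit*, *Lag3*, *Cd101* and *Cd200r1*, and the 2 were *Btla* and *Lilrb4a*. The study had already reported *Pdcd1*, *Havcr2*, *Tigit*, *Lag3* and *Cd101* as upregulated in T_Dysf from its RNA-Seq. Since the 10 were chosen with earlier results known, these counts beside the share of all genes are not a test of the set. The median log2 fold change was 1.42 over the 10 and 0 over all genes. After rescaling to equal 75th percentiles, 484 genes were called higher and 827 lower in place of 617 and 736, and the call of *Cd200r1* was lost. Within the libraries that lack the prefix, 7 of the 8 kept a 2-fold difference between T_Dysf and Acute-7d replicate 2, with *Cd200r1* just under it at 0.99. Their direction could not change in this subset, since the T_Dysf and Acute-7d ranges did not overlap for any of the 8. The calls were less stable: 2 of the 10 genes were called with a term for the prefix (*Pdcd1* and *Lilrb4a*), 2 among the 5 libraries without it (*Pdcd1* and *Havcr2*), 2 without Acute-7d replicate 1 or without T_Dysf replicate 1, and 3 without Acute-7d replicate 2 or without T_Dysf replicate 2. *Pdcd1* was called in each of these fits.

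**Figure D2:**
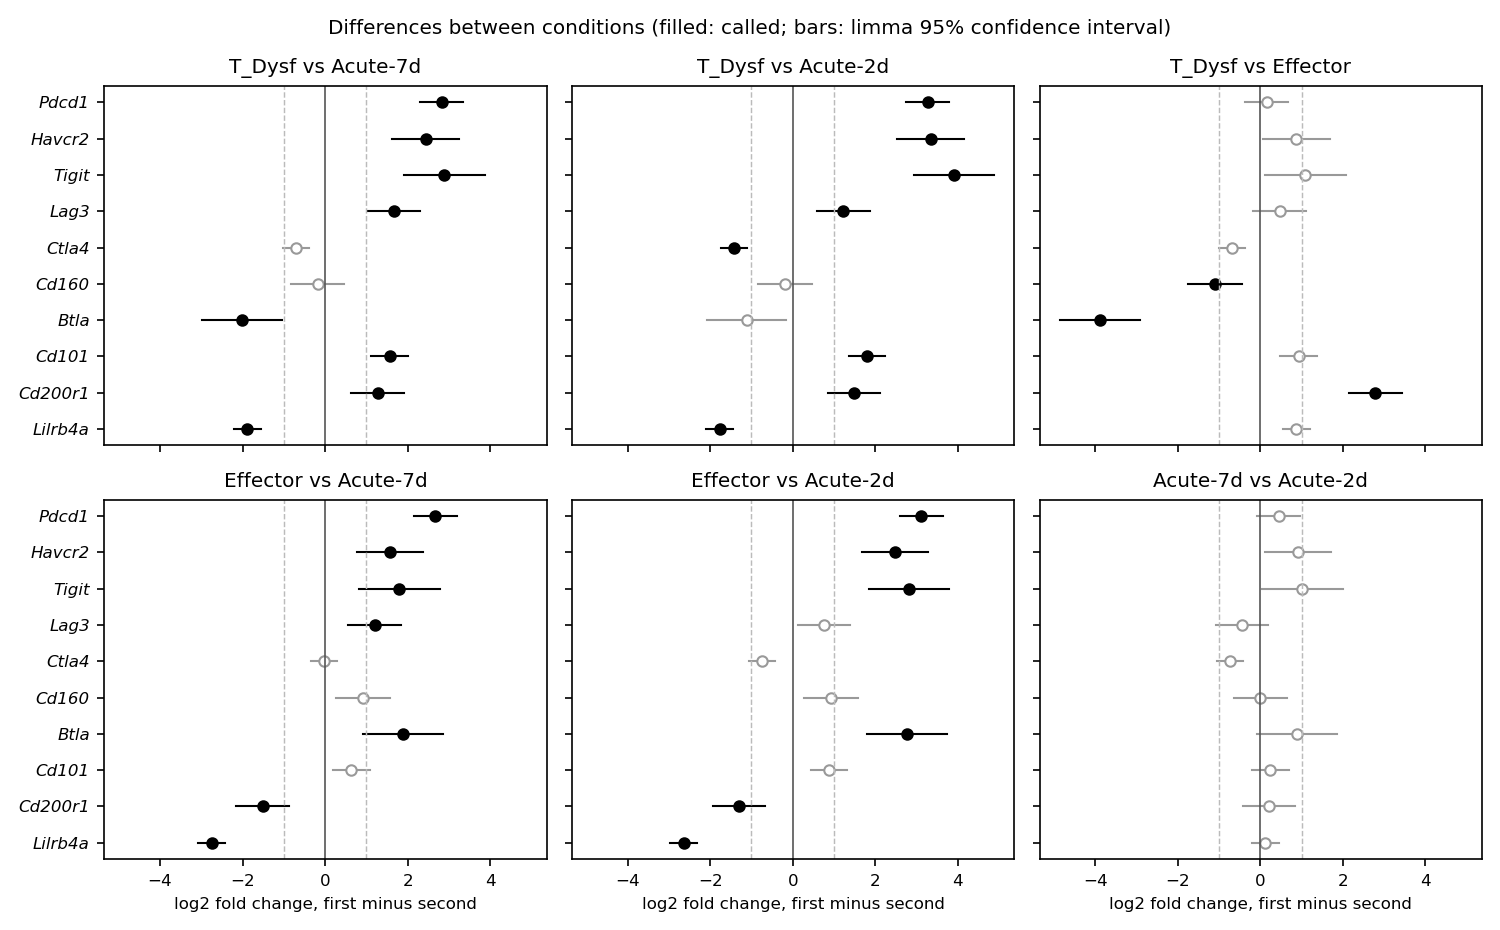
Log2 fold changes of the 10 receptor genes in the 6 comparisons, with limma's 95% confidence intervals (filled, called; open, not called; dashed lines, 2-fold). The panels of T_Dysf against Acute-7d and Acute-2d hold 8 filled points each, that of T_Dysf against Effector 3, and that of Acute-7d against Acute-2d none.

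Against Acute-2d, 6 receptors were called higher and 2 lower in T_Dysf, beside 3.14% and 4.21% of all genes, with a median of 1.35 over the 10 and 0 over all genes. Those called lower were *Ctla4* and *Lilrb4a*, with *Btla* added in the 3 alternatives given above and at an unadjusted p under 0.05. A term for the prefix and the 5 libraries without it each left 7 calls, and *Lag3* was the gene lost. Leaving out T_Dysf replicate 1 left 5, without *Tigit*, *Lag3* and *Cd200r1*. *Pdcd1*, *Havcr2*, *Ctla4*, *Cd101* and *Lilrb4a* were called in all 17 alternative fits of this comparison.

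Between T_Dysf and Effector, 1 receptor was called higher, *Cd200r1*, and 2 lower, *Cd160* and *Btla*, beside 4.47% and 4.75% of all genes, with a median of 0.67. These 2 conditions differ in the prefix as a whole, and with a term for it none of the 10 was called by limma, while without the term 4 were at least 2-fold different at an unadjusted p under 0.05. After adding it the log2 fold changes were -3.64 for *Btla* (adjusted p = 0.121, range 0.000465 to 0.121 over the alternatives) and 2.22 for *Cd200r1* (0.0813, range 0.000530 to 0.0813). *Cd200r1* and *Btla* were called with any 1 library left out, and the loss of *Cd160* is given above. For Effector against Acute-7d, 5 receptors were called higher and 2 lower, beside 4.18% and 3.88% of all genes, with a median of 1.06. Within the 3 RESUB libraries, the mean of the 2 Effector libraries against Acute-7d replicate 1, all 7 kept a 2-fold difference. Their direction could not change here, since the Effector and Acute-7d ranges did not overlap for any of the 7. After rescaling to equal 75th percentiles 4 were called, and over all genes that scaling gave 813 higher and 1184 lower in place of 1016 and 942. Leaving out Effector replicate 1 gave 4 calls, either Acute-2d library 3, and either Acute-7d or either T_Dysf library 2, of which *Pdcd1* and *Lilrb4a* were called in each case. With a fit of these 2 conditions alone only *Lilrb4a* was called.

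For Effector against Acute-2d, 4 receptors (*Pdcd1*, *Havcr2*, *Tigit* and *Btla*) were called higher and 2 (*Cd200r1* and *Lilrb4a*) lower, beside 4.31% and 4.48% of all genes, with a median of 0.90. Rescaling moved the median of all genes by -0.11 in this comparison, the largest such shift, and gave 787 genes higher and 1410.0 lower in place of 1047 and 1088, while it called the same 6 receptors in the same directions. Without either Acute-2d library *Havcr2*, *Tigit* and *Cd200r1* were not called, and the call of *Cd200r1* was also lost without Effector replicate 2 or either T_Dysf library. With the prefix term, or with a fit of these 2 conditions alone, *Lilrb4a* was the only receptor called. Log2 fold changes over the 16 alternatives, these 2 included, ran from 2.91 to 3.35 for *Pdcd1* and from 2.03 to 2.91 for *Havcr2*. Those of *Tigit* ran from 2.355 to 3.28, of *Btla* from 2.23 to 3.32, and of *Cd200r1* from -1.54 to -0.74. Between Acute-7d and Acute-2d, with a median of 0.22, none of the 10 was called by limma, beside 0.0782% and 0.0905% of all genes called higher and lower in Acute-7d, and *Tigit* passed at an unadjusted p under 0.05 with a 2-fold change (log2 fold change 1.02, 95% confidence interval 0.05 to 1.99), as did 910 genes of all those tested. *Havcr2* had 0.91 (0.10 to 1.71) and *Ctla4* -0.73 (-1.04 to -0.42) in the same comparison. These comparisons share libraries, so their values are given side by side and were not related to each other.

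Dividing by the length of the main transcript put the genes on a common scale, normalized counts per kilobase. On that scale *Lilrb4a* made up 68.7% of the summed level of the 10 genes in Acute-2d and 73.6% in Acute-7d, against 15.1% in Effector and 20.8% in T_Dysf. In T_Dysf *Tigit* came first with 3369.9 and 2900.3 per kilobase, followed by *Lilrb4a* with 2899.5 and 2439.9, then *Lag3* and *Pdcd1*. The lower *Tigit* value was nearly equal to the higher one of *Lilrb4a*, whose division of reads with *Lilrb4b* is uncertain. In Effector *Pdcd1* (2081 and 1577) and *Lag3* (2165 and 1355) had the highest means, and their ranges overlapped each other and that of *Tigit* (2024 and 1063), while that of *Lilrb4a* (1484 and 1437) overlapped those of *Lag3* and *Tigit*. *Ctla4* was the most abundant receptor after *Lilrb4a* in both Acute conditions, with 2033 and 2169 per kilobase in Acute-2d and 1321 and 1215 in Acute-7d. *Cd101* was the lowest in both Acute conditions, *Cd200r1* in Effector and *Btla* in T_Dysf. The sum of the other 9 genes, with *Lilrb4a* left out, was 9600.0 and 6837 per kilobase in Effector, 4000.4 and 4315 in Acute-2d, 3528 and 3527 in Acute-7d, and 10343 and 9944 in T_Dysf. With *Lilrb4a* included the sums of all 8 libraries lay between 8274 and 13941, and the rested and stimulated ranges overlapped.

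**Figure D3:**
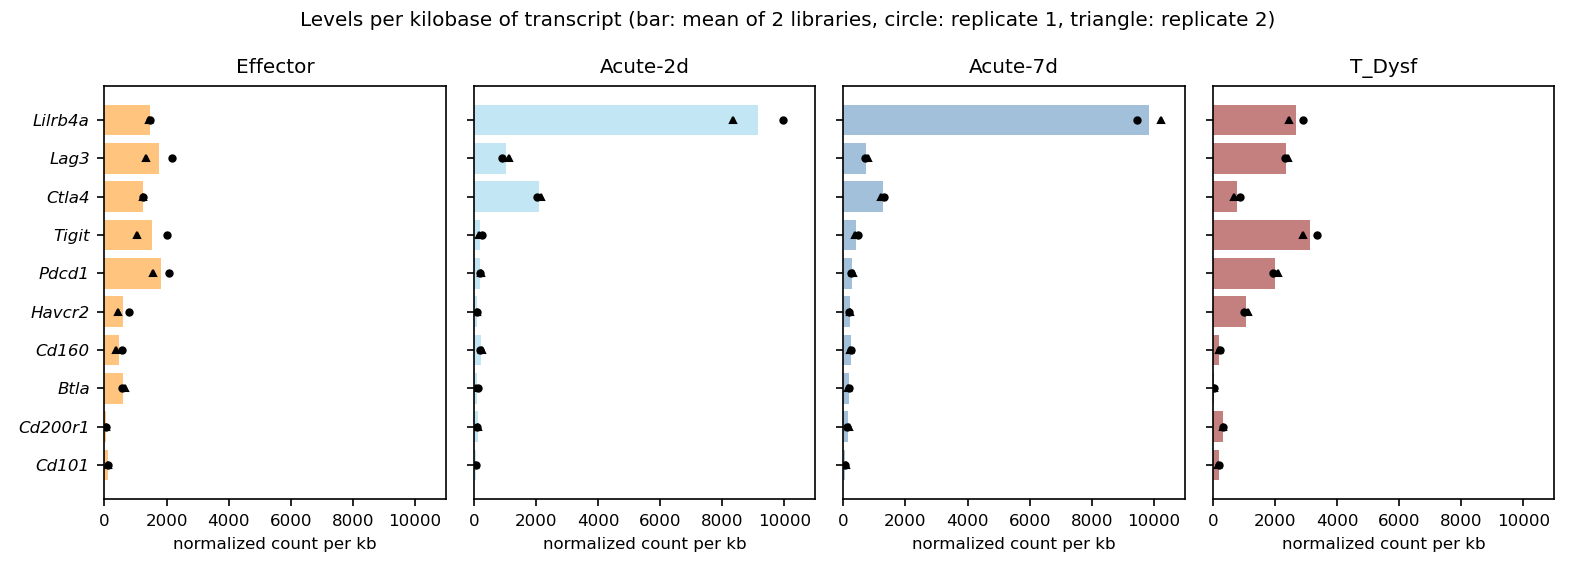
Normalized counts per kilobase of main transcript for the 10 receptor genes in each condition (bar, mean of 2 libraries; circle, replicate 1; triangle, replicate 2). *Lilrb4a* exceeds every other receptor in Acute-2d and Acute-7d, and *Tigit* is the highest in T_Dysf with 3369.9 and 2900.3.

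The genes whose profile over the 8 libraries was most like that of each receptor were found by the root mean square difference of centred log2 values, among 12028 genes with a mean of at least 50. *Havcr2* and *Tigit* were among each other's 3 nearest, at a difference of 0.29, the smallest between any of the 10 receptors, and *Dgkh*, a diacylglycerol kinase, was the nearest to *Havcr2* at 0.19 and the second nearest to *Tigit* at 0.33. *Dgkh* had 897 and 477 normalized counts in Effector, 165 and 117 in Acute-2d, 300.3 and 279 in Acute-7d, and 1278 and 1486 in T_Dysf. The nearest to *Pdcd1* was *Rgs8*, a regulator of G protein signalling, at 0.34, followed by *Nek6* and *Itih5*. *Lag3* lay nearest to the actin-capping gene *Capg*, at 0.18, then *Sv2a* and *Snx9*. *Cd101* lay nearest to *Glmn* at 0.12, then *Nvl* and *Hnrnpll*, and *Cd200r1* to *Marchf3* at 0.18, then *Myo3b* and *Gm12454*. The nearest to *Ctla4* were the MHC class I gene *H2-T22* at 0.12, *Grhpr* and *Zfas1*, to *Cd160* *Crip1* at 0.13, *Srebf2* and *Chd7*, and to *Btla* the interferon-induced *Ifit3* at 0.41, *Dnph1* and *Igf2bp3*. *Lilrb4a* had *Pou6f1* at 0.29, *Lilrb4b* at 0.30 and *Kctd12* at 0.30. These distances are not scaled by how much a gene varies. The root mean square of a receptor about its own mean ran from 0.47 for *Cd160* and 0.51 for *Ctla4* to 1.33 for *Havcr2* and 1.55 for *Tigit*. A smaller distance for one receptor than for another is thus not a closer likeness, and no test was made of the distances.

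Of 14 genes for ligands of these receptors, 2 were called higher and none lower in T_Dysf than in Acute-7d, beside 2.54% and 3.03% of all genes. *Cd200*, the ligand of the *Cd200r1* product, had 386 and 399 normalized counts in T_Dysf, 180.0 and 262 in Effector, 29.5 and 38.9 in Acute-2d, and 26.8 and 23.2 in Acute-7d, a difference of 3.92 from Acute-7d on the log2 scale (SE 0.25, adjusted p = 0.00392, limma). *Cd80*, which binds CD28 and CTLA-4, rose from 325 and 368 to 664 and 741 (1.02 on the log2 scale, SE 0.10, adjusted p = 0.00945, limma). It was not called without Acute-7d replicate 1, without T_Dysf replicate 2, without the 3 RESUB libraries, with a term for them or after rescaling. Within the libraries that lack the prefix, T_Dysf exceeded Acute-7d replicate 2 by 0.93 for *Cd80*. Over Acute-2d the same 2 genes were called higher in T_Dysf and none lower, beside 3.14% and 4.21% of all genes. Their log2 fold changes there were 1.43 for *Cd80* and 3.50 for *Cd200*, each called in all 17 alternatives. *Cd274*, which encodes PD-L1, had 591 and 948 in Effector, 7835 and 2704 in Acute-2d, 4762 and 2727 in Acute-7d, and 857 and 919 in T_Dysf, so that every rested library exceeded the other 4. T_Dysf and Acute-7d differed by -2.02 on the log2 scale (95% confidence interval -3.57 to -0.47), which was not called (adjusted p = 0.115). The other ligand genes with the highest mean counts, *Hmgb1*, *Lgals3* and *Lgals9*, were not called in that comparison either. The median was 0.67 over the 14 ligand genes, and over the 10 with a mean of at least 50 it was 0.53, against 0.02 for all genes with such a mean.

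Among 16 genes for signalling partners of inhibitory receptors, 2 were called higher and 1 lower in T_Dysf than in Acute-7d, beside 2.54% and 3.03% of all genes, with a median of 0.09 against 0 over all genes. All 16 had a mean of at least 50, and of the 12028 genes with such a mean 712 were called higher and 765 lower when fitted alone. *Ptpn6*, which encodes SHP-1, had 8381 and 8011 normalized counts in Effector, 2267 and 2554 in Acute-2d, 2824 and 3545 in Acute-7d, and 6659 and 6961 in T_Dysf, lowest, like *Pdcd1*, in the 4 rested libraries, and its log2 fold change over Acute-7d was 1.11 (SE 0.13, adjusted p = 0.0139, limma). The adaptors of the CD200 receptor parted, with *Dok1* at 1876 and 1852 in T_Dysf against 607 and 934 in Acute-7d (log2 fold change 1.31, SE 0.23, adjusted p = 0.0372) and *Dok2* at 2128 and 2141 against 5689 and 4812.5 (log2 fold change -1.29, SE 0.19, adjusted p = 0.0241). The calls of these 3 genes were lost without Acute-7d replicate 1, without either T_Dysf library and without the 3 RESUB libraries, that of *Dok1* also without either Effector or Acute-2d library, and that of *Dok2* also without Acute-7d replicate 2. All 3 were lost with the term for the prefix, *Ptpn6* and *Dok1* in a fit of the 2 conditions alone, and *Dok1* and *Dok2* with a replicate block. Over Acute-2d *Ptpn6* was called in T_Dysf in all 17 alternatives, while *Dok1* (adjusted p = 0.0591) and *Dok2* (-0.78, adjusted p = 0.0671) were not called. The kinase genes *Lck*, *Fyn* and *Csk* and the phosphatase gene *Ptpn22* were not called between T_Dysf and Acute-7d.

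Of 7 related receptors that share a ligand or a family with the 10, most of them activating, 3 were called higher in T_Dysf than in Acute-7d and 1 lower, beside 2.54% and 3.03% of all genes. *Cd96*, which binds CD155 as *Tigit* does, had 12048 and 12188 normalized counts in T_Dysf and between 2452 and 3507 in the other libraries, a log2 fold change of 1.98 over Acute-7d (SE 0.18, adjusted p = 0.00801, limma). *Cd200r4* had 1153 and 934 in T_Dysf against 222 and 287 in Acute-7d, and *Cd200r2* had 105 and 53.4 against 5.58 and 1.01. All 3 genes of the CD200 receptor family in the lists were thus called higher, *Cd200r2* from only 5 and 1 reads in Acute-7d. The uncertainty from shared sequence stated above holds for *Cd200r1* and *Cd200r4*, and *Cd200r2* was not compared with them in sequence. The calls of *Cd200r4* and *Cd200r2* were lost without any 1 of the Acute-2d, Acute-7d or T_Dysf libraries, and that of *Cd200r2* without either Effector library as well, while that of *Cd96* was lost without Acute-7d replicate 1 or T_Dysf replicate 1. With the term for the prefix none of the 4 calls of this list was made by limma. Within the libraries that lack the prefix, T_Dysf differed from Acute-7d replicate 2 by 1.89 for *Cd96* and 1.85 for *Cd200r4* on the log2 scale. The difference was 5.24 for *Cd200r2* and -2.19 for *Lilrb4b*. Over all alternatives *Lilrb4b* was called in 15 of 17, *Cd96* in 14 of 17, *Cd200r4* in 8 of 17 and *Cd200r2* in 4 of 16. *Lilrb4b* was called lower, at a log2 fold change of -2.27 (SE 0.21, adjusted p = 0.00890), and not without Acute-7d replicate 1. Against Acute-2d the same 4 genes were called in T_Dysf in the same directions, beside 3.14% and 4.21% of all genes called higher and lower. There *Cd96* was called in 17 of 17 alternatives, *Lilrb4b* in 16 of 17, *Cd200r4* in 9 of 17 and *Cd200r2* in 9 of 16. *Cd226*, *Cd28* and *Icos*, the activating counterparts of *Tigit* and *Ctla4* and a relative, were not called in any of the 6 comparisons.

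Of 14 other inhibitory receptor genes, 2 were called higher and 1 lower in T_Dysf than in Acute-7d, beside 2.54% and 3.03% of all genes, with a median of -0.13 over the 14 and of 0.24 over the 8 with a mean of at least 50. *Cd244a*, which encodes the receptor 2B4, had 4625 and 4737 normalized counts in T_Dysf, 1071 and 391 in Effector, 356 and 367 in Acute-2d, and 565 and 669 in Acute-7d, which T_Dysf exceeded by 2.93 on the log2 scale (SE 0.47, adjusted p = 0.0299, limma). *Pvrig*, whose product binds CD112, reached 420.3 and 352 in T_Dysf against 118 and 54.5 in Acute-7d (log2 fold change 2.25, SE 0.44, adjusted p = 0.0468). *Cd5*, a negative regulator of TCR signalling, had 691 and 694 in T_Dysf and 1849 and 1809.5 in Acute-7d (log2 fold change -1.40, SE 0.21, adjusted p = 0.0260). The calls of *Cd244a*, *Pvrig* and *Cd5* were lost when any 1 library of Acute-2d, Acute-7d or T_Dysf was left out, and that of *Pvrig* also without either Effector library. All 3 were lost with the term for the prefix, *Cd244a* also with a replicate block, and *Pvrig* also after rescaling, in a fit of the 2 conditions alone and without the RESUB libraries. This left 9, 5 and 10 of 17 alternatives with the call of *Cd244a*, *Pvrig* and *Cd5*. Within the libraries that lack the prefix, T_Dysf differed from Acute-7d replicate 2 by 2.80, 2.80 and -1.38 for these genes, in the same order, on the log2 scale. *Vsir*, which encodes VISTA, had the highest mean normalized count of this list and was low in Effector, with 3479.7 and 2672.5 against 8559 to 12943 in the other 6 libraries. *Klrc1*, *Cd72* and *Adora2a* were not called between T_Dysf and Acute-7d. Against Acute-2d, 3 genes of this list were called higher in T_Dysf and 2 lower, beside 3.14% and 4.21% of all genes. Those higher were *Cd244a* and *Pvrig*, each in 13 of 17 alternatives, and *Klrc1*, in 10 of 17. *Cd5*, in 10 of 17, was among those lower. *Klrc1* had 5552 and 4829 in T_Dysf, 649 and 496 in Acute-2d, and 1576 and 1974 in Acute-7d.

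**Figure D4:**
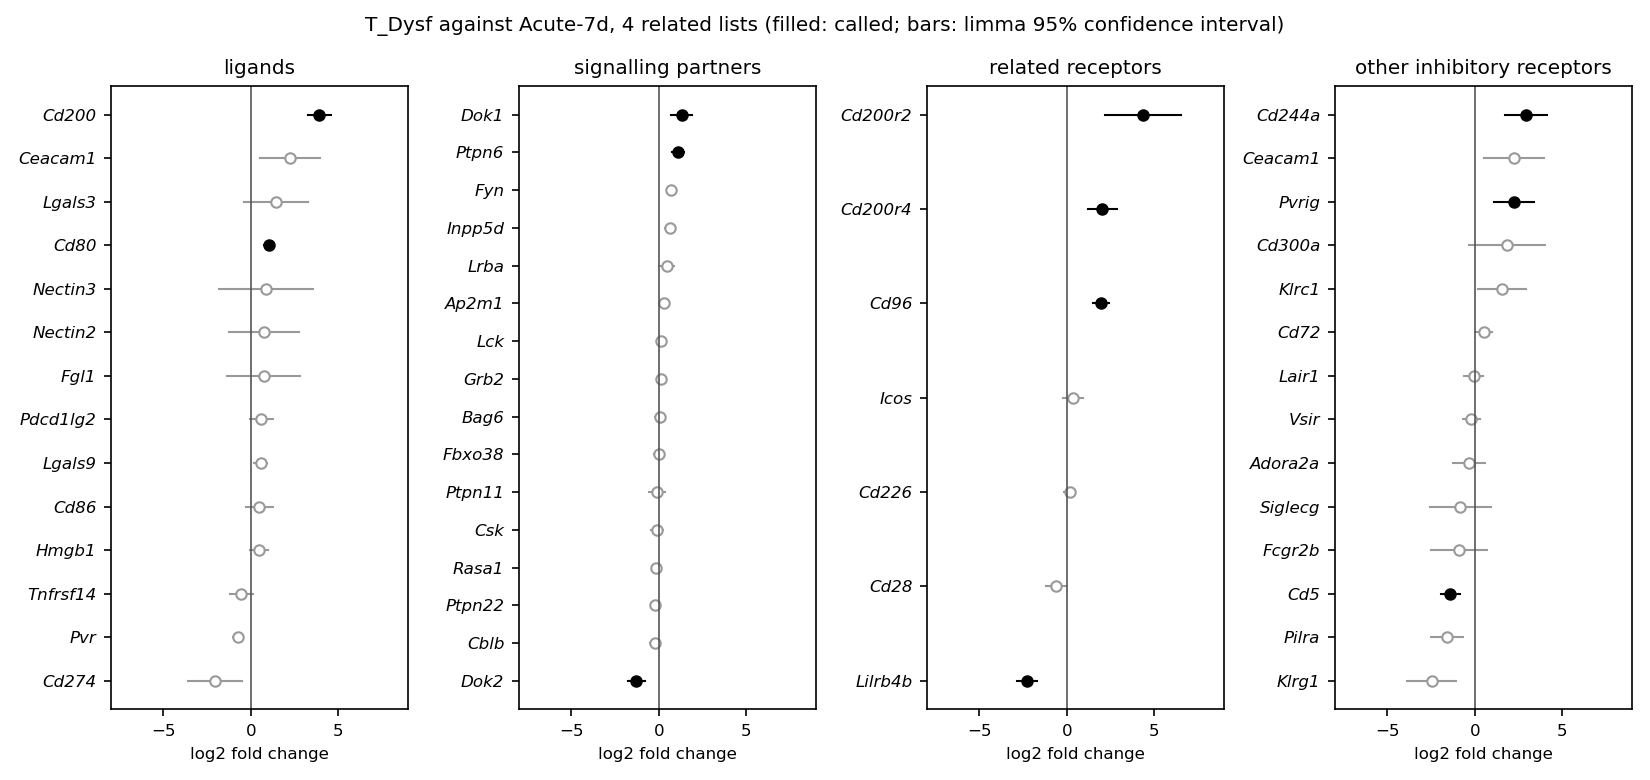
Log2 fold changes of T_Dysf over Acute-7d for genes of ligands, signalling partners, related receptors and other inhibitory receptors, with limma's 95% confidence intervals (filled, called; open, not called). Filled points number 2 of 14, 3 of 16, 4 of 7 and 3 of 14.

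*Lilrb4a* and *Cd200r1* are also expressed by myeloid and mast cells, and markers of such cells were read beside them. The 5 myeloid markers summed to between 253 and 634 normalized counts, led by *Lyz2*. *Itgam*, of that list, was lower in T_Dysf (49.1 and 51.4) than in the rested libraries (94.8 to 169), as *Lilrb4a* was, but had 225 and 39.3 in Effector. Of 4 dendritic cell markers 3 were in the table, summing to 3813 and 3622 in T_Dysf and to between 485 and 1584 elsewhere, and *Itgax* was the most abundant with 3306 and 3212 in T_Dysf. The 4 mast cell and basophil markers summed to 1851 and 1521 in T_Dysf and to between 101 and 483 elsewhere. *Kit* led them except in Acute-7d, where *Cpa3* was higher (136 and 235 against 52.4 and 149), and *Fcer1a* was at 0 throughout. *Itgax* and *Kit*, like *Cd200r1*, had their highest levels in T_Dysf, and their part in its result was not tested. Of the myeloid markers, *Fcgr3* was also highest there, at 83.7 and 90.7 in T_Dysf against at most 55.7 in the other 6 libraries. The other dendritic and mast cell markers were not highest in both T_Dysf libraries, with *Xcr1* at 391 and 300 in T_Dysf against 354 and 330.2 in Acute-7d, *H2-Aa* at 117 and 109 against 89.3 and 147, and *Cpa3* at 126 and 122 against 136 and 235. *Mcpt8*, at 9.14 and 4.01 in Effector, 59.0 and 31.3 in Acute-2d, 82.6 and 97.9 in Acute-7d, and 28.5 and 36.5 in T_Dysf, had the same order of condition means as *Lilrb4a*, and its part in that result was not tested. The NK cell markers *Klrb1c* and *Ncr1* summed to between 245 and 1489, highest in Acute-7d, the 2 CD4 T cell markers to at most 50.6, and the 2 erythroid markers to at most 42.6.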

How the data were processed

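Libraries were made from polyA RNA of sorted P14 CD8 T cells, 2 per condition. By the methods of the study, alignment was with STAR to mm10 in Partek Flow, and the authors quantified RefSeq transcripts and deposited counts per gene divided by DESeq2 median-ratio size factors, a signal. The study names Partek Flow v12 under its statistics, and versions of STAR and DESeq2 and the strandedness are not given in the sources used here. Deposited values were used as log2(normalized count + 1) with no filter, while the study left out features whose maximum was under 50. Groups were compared with limma 3.58.1 in R 4.3.3 (trend, two-sided, all 8 libraries, 4 residual degrees of freedom, Benjamini-Hochberg over 24303 genes), a procedure tested on simulated data. Gene positions and transcript lengths came from GENCODE for GRCm38, and Python 3.11.15 with pandas 2.3.3 and matplotlib 3.10.9 made the tables and figures. The members and lists were chosen with earlier results of these data known. Named from each list were genes called between T_Dysf and Acute-7d and up to 4 others of highest mean. Alternatives were pseudocounts of 0.1 and 10, filters at 50, rescaling, 2-group fits, a replicate block, a prefix term, unadjusted p-values and leaving out libraries. The fits without the 3 RESUB libraries were chosen after seeing the data.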

Additional observations from a re-analysis of the deposited data

How the results depend on the processing

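Over the alternatives other than unadjusted p-values, 816 log2 fold changes of single receptors kept their direction and side of the threshold. These include differences that were never called, such as 156 in Acute-7d against Acute-2d, so they do not measure how well calls held. In T_Dysf against Acute-7d, 124 were kept, uncalled ones included, and 46 lost the call. Of all values outside the 816, 149 kept the direction and lost the call, 7 gained it and 8 changed sign. The 7 were *Btla* in T_Dysf against Acute-2d 3 times, *Tigit* 2 times and *Havcr2* 1 time in T_Dysf against Effector, and *Lag3* 1 time in Effector against Acute-2d. None of the 8 was called with all libraries or in the alternative. With the RESUB term *Pdcd1* in T_Dysf against Effector became -0.0893, and without 1 replicate it ran from -0.0479 (without Effector replicate 2) to 0.353. Without 1 replicate, *Cd160* in T_Dysf against Acute-2d ran from -0.392 to 0.0221 (without Acute-2d replicate 2), and *Ctla4* in Effector against Acute-7d from -0.0789 to 0.0424 (without Acute-7d replicate 1). In Acute-7d against Acute-2d, *Cd160* ran from -0.208 to 0.206 (positive also without Acute-7d replicate 2, at 0.05), *Cd200r1* from -0.0781 (without Acute-7d replicate 2) to 0.491 and *Lilrb4a* from -0.0138 (without Acute-2d replicate 2) to 0.240. Of the 48 calls in the other lists, 546 alternative values kept the call and 241 lost it.

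With the RESUB term the receptors called fell from 8 to 2 in T_Dysf against Acute-7d, from 3 to 0 against Effector, from 7 to 2 in Effector against Acute-7d and from 6 to 1 against Acute-2d, and without the 3 RESUB libraries 2 were called in T_Dysf against Acute-7d; both leave only Acute-7d replicate 2 to compare with T_Dysf. The 2-group fit, which has fewer libraries to estimate the spread, called 1 receptor in each comparison of Effector with an Acute condition, and rescaling called 4 in Effector against Acute-7d, where the cause was not tested. At an unadjusted p under 0.05 with a 2-fold change, 1 receptor passed in Acute-7d against Acute-2d. Leaving out 1 replicate at a time gave 2 to 7 receptors in T_Dysf against Acute-7d, 5 to 8 against Acute-2d and 2 to 3 against Effector, 2 to 5 in Effector against Acute-7d and 3 to 6 against Acute-2d, and 0 in Acute-7d against Acute-2d, where a lone library is assumed to vary like the other groups.

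Replicate numbers were not taken as pairs, since the correlation of replicate differences across genes ran from -0.199 to 0.197 over 6 pairs of conditions. With the replicate block, 5 receptors were called in T_Dysf against Acute-7d (891 genes in all, against 1353) and 3 in Effector against Acute-7d, and 6, 2, 5 and 0 in T_Dysf against Acute-2d and Effector, Effector against Acute-2d and Acute-7d against Acute-2d.

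Over all genes, counts moved by more than 1.5 times as follows. In T_Dysf against Acute-7d, 1353 became 541 with the RESUB term, 628 without those libraries, 3184 at an unadjusted p and 422 to 1534 without 1 replicate. In T_Dysf against Acute-2d, 1787 became 3517 unadjusted and 656 to 1867 without 1 replicate. Against Effector, 2241 became 465 in the 2-group fit, 386 with the term, 4060.0 unadjusted and 585 to 2484 without 1 replicate. In Effector against Acute-7d, 1958 became 155, 808, 3515 and 378 to 2156 under the same changes, and against Acute-2d 2135 became 235, 350.0, 3705 and 553 to 2363. In Acute-7d against Acute-2d, 41 became 147, 168, 910.0 and 61 to 376, 81 and 4 with pseudocounts of 0.1 and 10, and 1 with either filter at 50. Depth limits *Btla* in T_Dysf, at 68 reads, more than any other receptor.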
